A study of Mus musculus with 4 samples.

Results

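The genes described here are Egr1, Ier2, Ier3, Nr4a1, Hspa1a, Hspa1b, Dusp1, Zfp36, Btg2 and Klf6, a set of 10 immediate early and dissociation stress genes taken by name, with earlier results of these data known. All 10 were found among the 36528 gene rows of the count tables. They were followed across cell classes, by genotype and by library, in droplet single-cell RNA sequencing of E16.5 embryonic mouse cortex. The libraries came from 2 COP1 KO mice and 2 HET mice of the C57BL/6 strain, and all 4 cortices were digested with papain for 30 min at 37 °C before capture. The titles call the COP1 KO samples CKO and name no driver, the labels do not define HET, and no litter or batch is given. COP1 helps a ubiquitin ligase to pick its substrates, of which the transcription factor c-JUN is a known one. Replicates are numbered in accession order and pair no samples, and with 2 mice per genotype the p-values measure the spread between these mice only.

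Immediate early genes are switched on within minutes of a stimulus, without new protein synthesis, by transcription factors that already sit in the cell, such as SRF, CREB and, for heat-shock genes, HSF1. In brain they are best known as markers of neuronal activity, and the same genes are also induced when tissue is warmed and digested with enzymes, most readily in microglia and vessel cells. Their products include transcription factors (Egr1, Nr4a1, Klf6) and a small nuclear protein of the early response (Ier2). Others are brakes on the signal or on messenger RNA (Dusp1, Zfp36, Btg2), a survival regulator (Ier3) and heat-shock chaperones (Hspa1a, Hspa1b). All libraries went through the same digestion, so RNA made in the embryo and RNA made during dissociation cannot be told apart here.

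The tables held 19237 cell barcodes, of which 18782 were kept. COP1 KO libraries kept 5195 and 4729 cells, and HET libraries 4545 and 4313. Deposited totals were between 28049007 and 28988265 counts per library. Median depth was 4505 and 5134 counts per cell in COP1 KO libraries and 5171 and 5475 in HET libraries, and the median mitochondrial share was 1.27% and 1.24% in COP1 KO against 1.14% and 1.13% in HET. Between libraries 173 barcode sequences were shared. Rfwd2, the older symbol of the targeted gene Cop1, had 30.5 and 29.7 CPM (counts scaled to a total of 1000000) in COP1 KO and 32.0 and 39.2 CPM in HET (log2 change -0.22, SE 0.11, edgeR adjusted p = 0.531). The deleted part of the gene is not given, so 3′ counts outside it would not check the labels. The samples were labelled cortical, and clusters with markers of striatal projection neurons and of ganglionic eminence progenitors were also present. Cells were clustered with the 10 genes and other stress genes left out of the variable genes. A cluster was named, with the ending "-like", where listed markers of a cell type led it. Clusters holding 744 and 224 cells stayed unnamed.

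Hspa1a and Hspa1b encode near-identical HSP70 chaperones and are neighbours on chromosome 17, 10120 bases apart in RefSeq's GRCm38.p6. Their longest open reading frames were 99.4% identical, and the sequence after the reading frame, where 3′ libraries read, was 51.1% identical. None of the 50-base words in the last 500 bases of either transcript occurred in the other (0%), but the sources do not say how reads shared by both genes were assigned, so the split between them is uncertain. The RefSeq promoter table held 8 of the 10 genes, and Egr1 and Ier2 are named only. The 250 bases before the start site are shown for the Hspa1 pair, which is near-identical there too. They are also shown for Dusp1, Btg2 and Zfp36, which carry sites for factors that act on immediate early genes. All 5 lie on the minus strand of GRCm38.p6 and are written 5′ to 3′. Capitals mark a heat-shock element core (GAANNTTC) in the Hspa1 pair, the cAMP response element (TGACGTCA) and its half-site (TGACG) in Dusp1 and Btg2, and a CArG box, the SRF site, in Zfp36.
Hspa1a, chr17:34972157-34972406: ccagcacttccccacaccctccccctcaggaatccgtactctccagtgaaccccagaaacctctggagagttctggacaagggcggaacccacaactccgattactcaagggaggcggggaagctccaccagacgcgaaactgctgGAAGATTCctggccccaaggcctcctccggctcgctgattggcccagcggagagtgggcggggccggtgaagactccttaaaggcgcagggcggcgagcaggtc
Hspa1b, chr17:34959239-34959488: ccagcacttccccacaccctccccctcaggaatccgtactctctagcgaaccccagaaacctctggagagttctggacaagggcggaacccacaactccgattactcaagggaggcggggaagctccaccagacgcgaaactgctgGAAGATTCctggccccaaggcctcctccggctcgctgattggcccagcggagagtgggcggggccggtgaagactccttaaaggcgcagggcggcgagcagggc
Dusp1, chr17:26508473-26508722: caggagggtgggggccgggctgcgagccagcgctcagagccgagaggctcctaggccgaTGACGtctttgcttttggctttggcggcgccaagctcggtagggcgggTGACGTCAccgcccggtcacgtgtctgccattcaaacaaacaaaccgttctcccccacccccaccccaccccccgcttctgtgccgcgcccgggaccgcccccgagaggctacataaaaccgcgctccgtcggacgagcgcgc
Btg2, chr1:134079156-134079405: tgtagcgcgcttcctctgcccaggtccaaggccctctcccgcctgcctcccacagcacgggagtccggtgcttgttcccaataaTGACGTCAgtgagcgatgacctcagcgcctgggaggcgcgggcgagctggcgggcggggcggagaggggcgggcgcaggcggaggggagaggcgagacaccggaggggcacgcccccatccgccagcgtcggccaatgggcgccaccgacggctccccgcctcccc
Zfp36, chr7:28379229-28379478: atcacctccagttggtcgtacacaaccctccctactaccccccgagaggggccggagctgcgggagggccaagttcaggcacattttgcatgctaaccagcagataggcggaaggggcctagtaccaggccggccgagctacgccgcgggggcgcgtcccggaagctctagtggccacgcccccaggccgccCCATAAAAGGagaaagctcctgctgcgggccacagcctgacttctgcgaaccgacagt

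The heat-shock core began 104 bases before the start site (-104) in both Hspa1 genes, whose 300-base promoter windows matched at 296 positions. A core of this kind was present in 7.86% of 32851 RefSeq promoter windows of the same length, both strands searched. The full response element TGACGTCA lay at -143 in Dusp1 and at -166 in Btg2 and was present in 1.79% of the windows. Its half-site TGACG, which overlaps the full element, was matched 3 times in Dusp1, 2 times in Btg2 and 4 times in the Nr4a1 window, against 20.8% of windows with at least 1 match. The Nr4a1 window in the table belongs to a start site inside the annotated gene. The CArG box of Zfp36 lay at -58, and 1.63% of windows held one. Searches for the AP-1 site TGANTCA, the EGR site GCGTGGGCG, the ETS site CCGGAAGT and the box TATAAA found no match in the 8 windows. A longer heat-shock element, of which the core is the first part, was also searched. It had no match in the 8 windows, those of Hspa1a and Hspa1b included, and was present in 0.603% of the 32851 windows. A match is a string of letters in a window and not a measured binding site.

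Vessel, microglia-like and fibroblast-like cells carried the highest levels of most of the 10 genes, far above neurons. These 4 classes (endothelial-like, mural-like, microglia-like and fibroblast-like) made up 1.52% of kept cells and 2.78% of their counts. They held 79.1% of all Zfp36 counts, 75.9% of Hspa1b counts, 72.0% of Hspa1a counts and 63.1% of Ier3 counts. The share was 15.9% for Egr1 and 16.4% for Nr4a1, and between 7.37% and 9.91% for Ier2, Dusp1, Btg2 and Klf6. The highest class was mural-like for Egr1, Ier2 and Dusp1, microglia-like for Hspa1a, Hspa1b, Zfp36, Btg2 and Klf6, endothelial-like for Nr4a1 and fibroblast-like for Ier3. All 10 genes kept that class under each other clustering tried. Leaving out HET replicate 2 changed it for 2 genes, and leaving out COP1 KO replicate 2 or HET replicate 1 changed it for 1 gene each. The 4 classes are small, with 63 endothelial-like, 42 mural-like, 86 microglia-like and 95 fibroblast-like cells over the 4 libraries. The endothelial-like class also carried erythroid markers, summed to 26479 to 88857 CPM per library, and mural markers, summed to 2184 to 6412 CPM. Its levels may therefore not be those of endothelial cells alone. Levels below are CPM of the summed cells of a class, as the mean ± SD over the 4 libraries (n = 4), both genotypes together, and each gene is compared only with itself across classes.

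**Figure D1:**
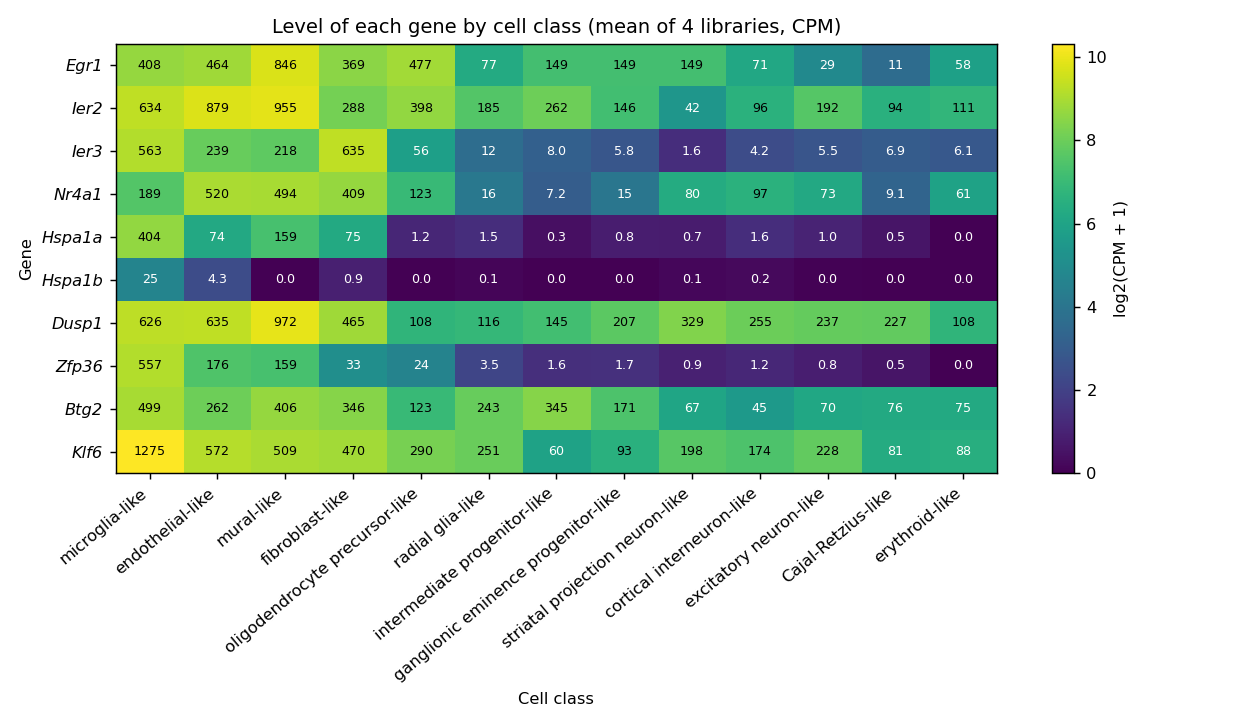
Level of each of the 10 genes in 13 cell classes, as mean CPM over the 4 libraries, printed in each cell and coloured on a log2(CPM + 1) scale. The 4 classes on the left, microglia-like to fibroblast-like, hold the highest level of every gene, and Hspa1a, Hspa1b and Zfp36 are close to 0 in the neuronal classes.

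Among the transcription factors, Egr1, a zinc-finger regulator and a classic activity marker, reached 846 ± 174 CPM in mural-like cells. It was also high in oligodendrocyte-precursor-like cells at 477 ± 44.7 CPM, a level that overlapped those of endothelial-like, microglia-like and fibroblast-like cells. The oligodendrocyte-precursor-like class also carried radial glia markers, as given below. Intermediate progenitors, ganglionic eminence progenitors and striatal projection neurons (all "-like") shared one level, from 148.8 ± 17.8 to 149.5 ± 29.6 CPM. Radial-glia-like cells had 77.2 ± 11.4 CPM, excitatory-neuron-like cells 29.0 ± 1.39 CPM and Cajal-Retzius-like cells 11.5 ± 11.9 CPM. The SD in excitatory neurons was far smaller than the gap to the progenitor classes, and no library of one overlapped any library of the other.

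Nr4a1, an orphan nuclear receptor induced by calcium and cAMP signals, was higher in 3 neuronal classes than in radial-glia-like and intermediate-progenitor-like cells. It averaged 520 ± 140 CPM in endothelial-like cells. In neurons it had 96.5 ± 21.9 CPM in cortical-interneuron-like, 79.5 ± 19.0 CPM in striatal-projection-neuron-like and 73.2 ± 6.28 CPM in excitatory-neuron-like cells, which overlapped each other. In radial-glia-like cells it had 16.495 ± 1.90 CPM and in intermediate-progenitor-like cells 7.19 ± 1.68 CPM, below every library of those 3 neuronal classes. Cajal-Retzius-like cells, also neurons, had 9.15 CPM and lay with these progenitors. Oligodendrocyte-precursor-like cells had 123 ± 72.9 CPM and overlapped all 3 neuronal classes. Within excitatory-neuron-like cells, Nr4a1 varied between clusters from 168 ± 23.1 CPM in cluster 1 (1700 cells) to 7.32 ± 1.15 CPM in cluster 4 (1263 cells). The interneuron-like clusters differed too, with 118 ± 29.8 CPM in cluster 3 and 18.2 ± 5.14 CPM in cluster 16.

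Klf6, a Kruppel-like factor, and Ier2, a small nuclear protein of the early response, were spread over nearly all classes. Klf6 had 1275 ± 194 CPM in microglia-like cells and 572 ± 98.4 CPM in endothelial-like cells. Below oligodendrocyte-precursor-like cells at 289.6 ± 79.7 CPM, its neural order ran from 251 ± 29.0 CPM in radial-glia-like and 228 ± 10.4 CPM in excitatory-neuron-like cells to 60.4 ± 6.79 CPM in intermediate-progenitor-like cells. Between excitatory clusters, Klf6 ranged from 361 ± 24.8 CPM in cluster 2 to 71.9 ± 9.66 CPM in cluster 4. Ier2 had 955 ± 275 CPM in mural-like cells, 262 ± 42.0 CPM in intermediate-progenitor-like cells and 192 ± 7.66 CPM in excitatory-neuron-like cells. Its lowest level was in striatal-projection-neuron-like cells, 42.3 ± 9.41 CPM, the class in which Dusp1 was at its highest among neural classes. Klf6 and Ier2 therefore ran in different orders across the same neural classes.

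Ier3, a stress-induced regulator of survival signalling, was low in neurons. It had 635 ± 128 CPM in fibroblast-like and 563 ± 59.4 CPM in microglia-like cells, and 55.6 ± 7.66 CPM in oligodendrocyte-precursor-like cells. Radial-glia-like cells had 11.8 ± 7.51 CPM, a mean over libraries that differed by genotype, as given below. The other neural classes had between 1.56 ± 1.08 CPM and 7.97 ± 2.61 CPM.

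Dusp1, the phosphatase that switches off MAP kinases, was present in every class. It had 972 ± 208 CPM in mural-like cells and 329 ± 5.46 CPM in striatal-projection-neuron-like cells, where no library overlapped those of any lower class. Cortical-interneuron-like, excitatory-neuron-like and Cajal-Retzius-like cells overlapped at 255 ± 38.9, 237 ± 10.2 and 227 ± 36.5 CPM. Radial-glia-like cells had 116 ± 15.05 CPM. Between the striatal-like clusters, Dusp1 had 420.5 ± 13.0 CPM in cluster 11 and 273 ± 9.06 CPM in cluster 8.

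Btg2, an antiproliferative factor that recruits the deadenylase complex and is a known mark of neurogenic divisions, reached levels in progenitors that overlapped those of non-neural classes. It had 345 ± 35.6 CPM in intermediate-progenitor-like, 243 ± 34.4 CPM in radial-glia-like and 171 ± 28.8 CPM in ganglionic-eminence-progenitor-like cells. Excitatory-neuron-like cells had 69.7 ± 3.83 CPM and cortical-interneuron-like cells 45.2 ± 6.94 CPM. Within radial-glia-like cells it had 335 ± 68.9 CPM in cluster 10 and 148 ± 27.1 CPM in cluster 15, whose leading genes included the cell-cycle genes Cdca3, Cdc20 and Cenpf. Egr1 differed between the same clusters, at 108 ± 20.2 CPM in cluster 10 and 46.0 ± 13.3 CPM in cluster 15.

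Zfp36, which encodes tristetraprolin, a factor that binds AU-rich elements and triggers messenger RNA decay, was highest in microglia-like cells. It had 557 ± 69.3 CPM there, 176 ± 19.2 CPM in endothelial-like cells and 159 ± 72.4 CPM in mural-like cells. Oligodendrocyte-precursor-like cells had 23.8 ± 20.6 CPM, radial-glia-like cells 3.47 ± 0.39 CPM and excitatory-neuron-like cells 0.84 ± 0.22 CPM. Hspa1a had 404 ± 321 CPM in microglia-like cells, with 310 and 875 CPM in the COP1 KO libraries and 153 and 279 CPM in the HET libraries. It had 159 ± 111 CPM in mural-like and 73.6 ± 64.2 CPM in endothelial-like cells, and between 0.35 ± 0.70 and 1.56 ± 0.58 CPM in the named neural classes. Both unnamed clusters were higher, with 8.35 ± 3.42 CPM in cluster 12, led by Lhx8, Snhg11 and Hap1, and 20.7 ± 9.68 CPM in cluster 21, led by Snhg11, Fxyd7 and Resp18. Hspa1b gave 29 counts in all, 5 and 18 in COP1 KO libraries and 2 and 4 in HET libraries. Of these 16 were in microglia-like cells. With cells thinned to 2000 counts, 0.28% of excitatory-neuron-like cells had an Hspa1a count and 0.21% a Zfp36 count (means of 4 libraries), against 23.4% and 53.9% of microglia-like cells. The 34 erythroid-like cells held no count of Hspa1a, Hspa1b or Zfp36, where 3 counts in a library would be 30.4 to 79.4 CPM.

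The members were also counted per cell, after each cell was thinned to 2000 counts so that depth was equal. A cell in the whole library had a median of 1 of the 10 genes, with a mean of 1.23 and a maximum of 9. The median was 4.5 in microglia-like, 4 in endothelial-like and mural-like, 3 in fibroblast-like and 2 in oligodendrocyte-precursor-like cells, and 1 in every other class. The share of cells with at least 3 of the genes was 11.8% and 12.7% in COP1 KO libraries and 11.8% and 11.02% in HET libraries. In excitatory-neuron-like cells it was 10.9% and 12.01% in COP1 KO against 10.7% and 10.5% in HET. The intervals of these 4 shares overlapped (exact binomial 95%, 9.75% to 12.2% and 10.7% to 13.4% in COP1 KO, 9.53% to 12.03% and 9.19% to 11.8% in HET, counting error only). In microglia-like cells it was 92.9% (26 of 28) and 91.7% (22 of 24) in COP1 KO and 66.7% (12 of 18) and 75.0% (12 of 16) in HET. The genotypes did not overlap there, but the exact binomial intervals did (76.5% to 99.1% and 73.0% to 99.0% in COP1 KO, 41.0% to 86.7% and 47.6% to 92.7% in HET). An exact two-sided permutation test of 2 libraries against 2 gave p = 0.333, the smallest it can give. Without thinning, 95.3% of microglia-like cells had at least 3 of the genes (mean of 4 libraries). Oligodendrocyte-precursor-like cells had 21.6% and 33.3% in COP1 KO and 32.4% and 30.6% in HET, and the COP1 KO libraries spanned both HET values.

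**Figure D2:**
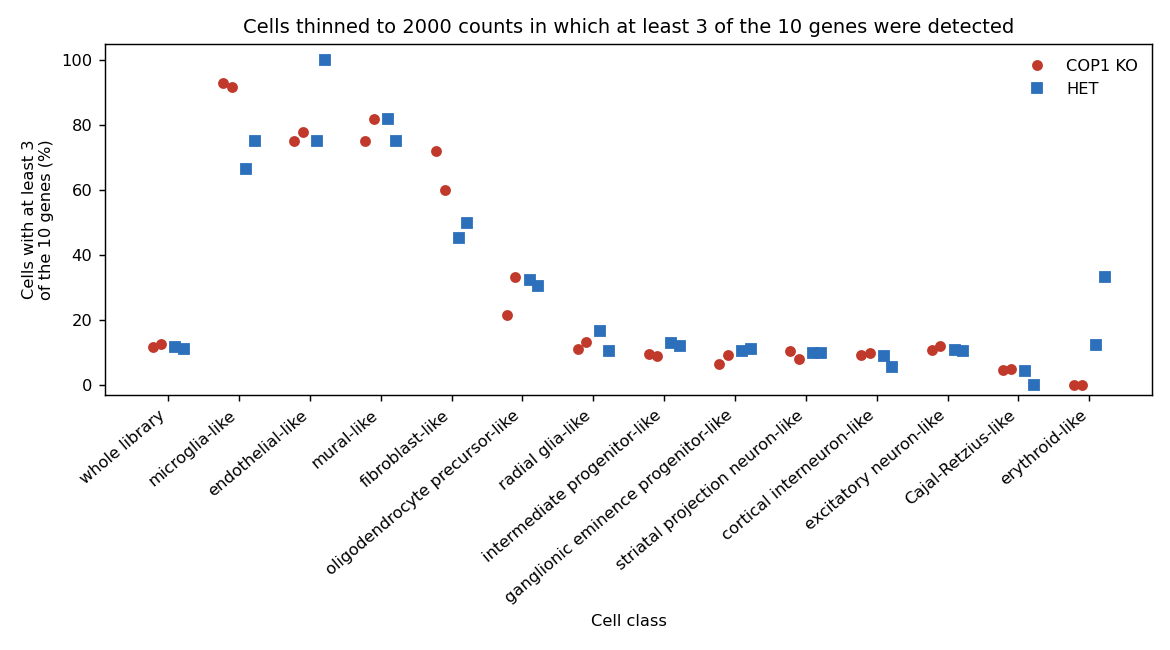
Percent of cells in which at least 3 of the 10 genes were detected after thinning to 2000 counts, by class, with 1 point per library (circles COP1 KO, squares HET). Microglia-like cells of COP1 KO libraries sit at 92.9% and 91.7% and those of HET libraries at 66.7% and 75.0%, while excitatory-neuron-like cells of all libraries lie between 10.5% and 12.01%.

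Detection of the genes together in single cells was described by the Pearson correlation of their thinned log values within each library and class. Cells of a library share its preparation, and no p is attached. In mural-like cells Egr1 and Dusp1 correlated at a mean of 0.59 over libraries, with both detected in 26 of 42 cells against 21.1 expected if they were independent. In oligodendrocyte-precursor-like cells Egr1 and Ier2 correlated at 0.44. The same pair correlated at 0.25 in cortical-interneuron-like cells, where 36 cells had both against 15.7 expected. In radial-glia-like cells it correlated at 0.23, where 67 cells had both against 35.1 expected. In excitatory-neuron-like cells the values were low, as for Ier2 and Nr4a1 at 0.12, with 403 cells having both against 276 expected.

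Across the 52 class-by-library sums, the genes whose log2(CPM + 1) pattern was most like the summed pattern of the set, among 7893 genes compared, were Arhgap31 (r = 0.94), Pfn1 (r = 0.94), Atf3 (r = 0.94), Capg (r = 0.93) and Tnfrsf1a (r = 0.93). Atf3, a stress-induced transcription factor, had 667 CPM in microglia-like and 0.72 CPM in excitatory-neuron-like cells. The sums share libraries and differ in depth, so these values only describe likeness. With each class centred on its mean over libraries the closest were Ldha (r = 0.76), Cdc40 (r = 0.76), Acot13 (r = 0.76), Ifrd1 (r = 0.76) and Zfp593 (r = 0.75).

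The first comparison by genotype took all kept cells of a library together. None of the 9 testable genes passed the threshold (0 of 9, edgeR adjusted p under 0.05), where 0.0118% of 16977 genes did. Hspa1b had too few counts to test. The unadjusted p was under 0.05 for 2 of the 9, against 10.5% of all genes. The median log2 change of the 9 genes was 0.13, against 0.00 for all genes. In such sums, more cells of a type and more RNA per cell cannot be told apart.

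Egr1 had 83.7 and 89.8 CPM in COP1 KO libraries and 72.0 and 75.2 CPM in HET libraries. Both COP1 KO values lay above both HET values, with a log2 change of 0.26 (SE 0.05, unadjusted p = 0.00333, edgeR adjusted p = 0.251). Oligodendrocyte-precursor-like cells, which were more numerous in COP1 KO (113 and 141 cells, against 34 and 36 in HET), held 875 of the 4722 Egr1 counts in COP1 KO and 284 of the 3978 in HET. Without that class Egr1 had 73.5 and 72.9 CPM in COP1 KO and 67.7 and 70.5 CPM in HET, still without overlap, and the log2 change was 0.11 (SE 0.05, edgeR adjusted p = 0.567), with none of the 9 genes called where 0.0119% of all genes were. Klf6 had 234 and 227 CPM in COP1 KO and 213 and 215 CPM in HET, also without overlap (log2 change 0.13, SE 0.05, edgeR adjusted p = 0.449). Hspa1a had 5.73 and 9.40 CPM in COP1 KO and 3.08 and 5.71 CPM in HET. Its groups barely separated, and the log2 change of 0.81 (SE 0.36, edgeR adjusted p = 0.493) was 0.34 when microglia-like, endothelial-like, mural-like and fibroblast-like cells were left out. Nr4a1 had 60.6 and 71.4 CPM in COP1 KO and 74.0 and 74.4 CPM in HET, and Dusp1 had 226 and 227 CPM in COP1 KO and 247 and 238 CPM in HET. Both were lower in each COP1 KO library, with log2 changes of -0.15 (SE 0.08) and -0.07 (SE 0.04). Zfp36 had 8.94 and 7.07 CPM in COP1 KO and 6.75 and 6.86 CPM in HET. Genotypes of 6 of the 9 genes did not overlap, where 45.8% of all tested genes did not.

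Ier2, Ier3 and Btg2 overlapped between genotypes. Hspa1b, too sparse to test, did not overlap, with 0.19 and 0.65 CPM in COP1 KO and 0.07 and 0.15 CPM in HET. These levels rest on 23 counts in COP1 KO and 6 in HET. Ier2 had 179 and 188 CPM in COP1 KO and 188 and 194 CPM in HET. Ier3 had 18.9 and 19.4 CPM in COP1 KO and 15.3 and 19.2 CPM in HET. Btg2 had 114 and 112 CPM in COP1 KO and 108 and 119 CPM in HET, a log2 change of 0.02 (SE 0.06). Without COP1 KO replicate 2, Nr4a1 passed the threshold (log2 change -0.25, edgeR adjusted p = 0.0351), in a fit that called 6.93% of all genes.

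**Figure D3:**
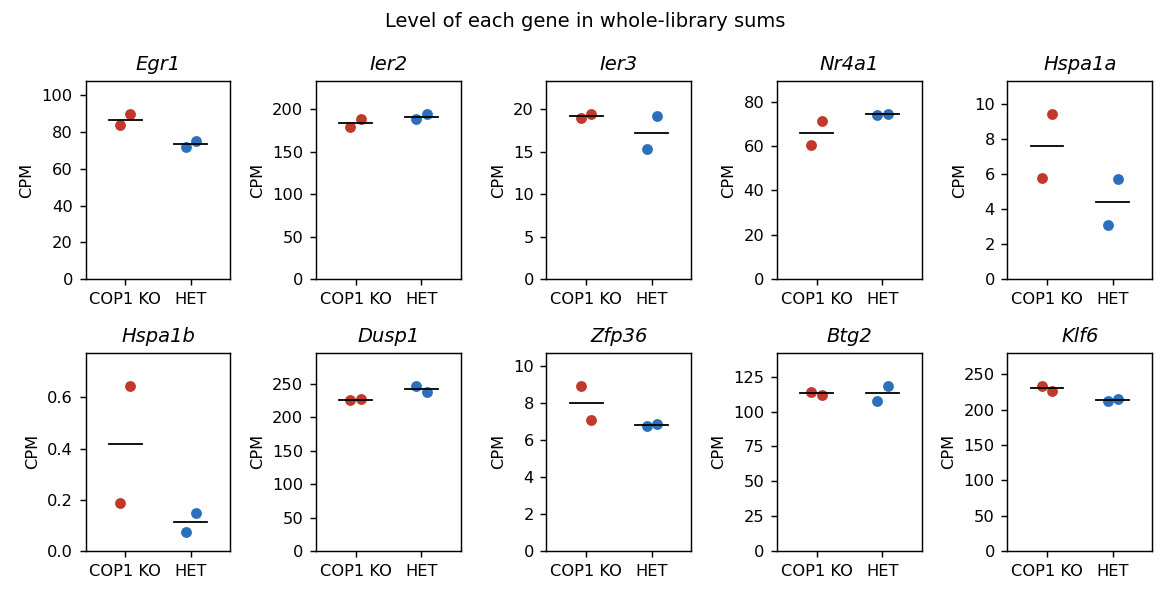
Level of each of the 10 genes in all kept cells of a library, in CPM, with 1 point per library and a line at the mean of the 2 libraries of each genotype. The COP1 KO points lie above the HET points for Egr1 and Klf6 and below them for Nr4a1 and Dusp1, and no gene passed the threshold.

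Within classes, 8 had at least 20 cells in every library and were tested, which gave 53 pairs of gene and class. Ier3 in radial-glia-like cells was the 1 pair that passed. In that class 1 of 7 genes rose, where 2.12% of 11627 genes rose and 3.04% passed in either direction. In the other classes no gene of the set passed, at a background of 0.594% in intermediate-progenitor-like, 0.102% in ganglionic-eminence-progenitor-like, 0.0992% in oligodendrocyte-precursor-like, 0.0135% in Cajal-Retzius-like, 0.0101% in cortical-interneuron-like, 0.00971% in striatal-projection-neuron-like and 0% in excitatory-neuron-like cells. Over the 53 pairs the unadjusted p was under 0.05 for 14. By class this was 4 of 7 genes in intermediate-progenitor-like cells (10.8% of all genes), 3 of 8 in oligodendrocyte-precursor-like (9.57%), 2 of 7 in radial-glia-like (15%), 2 of 6 in ganglionic-eminence-progenitor-like (7.71%) and 2 of 6 in striatal-projection-neuron-like cells (6.55%). It was 1 of 9 in excitatory-neuron-like (9.37%), 0 of 6 in cortical-interneuron-like (6.33%) and 0 of 4 in Cajal-Retzius-like cells (6.46%).

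Ier3 in radial-glia-like cells had 41 and 43 counts in COP1 KO libraries and 7 and 17 counts in HET libraries. This was 18.2 CPM (exact Poisson 95% interval 13.1 to 24.7) and 18.2 CPM (13.1 to 24.5) in COP1 KO, and 3.57 CPM (1.44 to 7.36) and 7.35 CPM (4.28 to 11.8) in HET. Both COP1 KO libraries lay above both HET libraries, and no interval of one genotype reached into the other. The log2 change was 1.74 (SE 0.35, edgeR adjusted p = 0.0276). With DESeq2 the log2 change was 1.76 and the adjusted p was 0.172, where DESeq2 called 0.844% of genes. Without HET replicate 1 it was 1.35 with an edgeR adjusted p of 0.153. Cluster 10 alone gave 1.38 (edgeR adjusted p = 0.0965) and cluster 15 alone 2.28 (edgeR adjusted p = 0.067). Over cells thinned to 2000 counts, 2.62% and 3.61% of radial-glia-like cells in COP1 KO and 1.07% and 1.01% in HET had an Ier3 count (unthinned, 6.53% and 8.43% against 2.49% and 5.07%). The thinned share in excitatory-neuron-like cells was 0.86% and 1.51% in COP1 KO and 1.40% and 1.16% in HET. The HET radial-glia-like shares lay within the range of these 4 values and both COP1 KO radial-glia-like shares above it.

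Markers of other cell types, depth and mitochondrial share were compared in the same radial-glia-like cells. The summed level of 11 microglia markers, all detected, was 7.56 and 7.18 CPM in COP1 KO against 5.61 and 6.49 CPM in HET, that of 9 endothelial markers 14.7 and 12.2 CPM against 8.67 and 9.95 CPM, and that of 7 fibroblast markers 36.5 and 58.7 CPM against 28.1 and 30.3 CPM. The 9 mural markers summed to 60.0 and 82.3 CPM in COP1 KO and 44.9 and 61.4 CPM in HET, with overlap. The 9 erythroid markers, 1 of them at 0 in all libraries, summed to 1473 CPM in COP1 KO replicate 1, 180 CPM in COP1 KO replicate 2, and 177 and 152 CPM in HET. Median depth was 5229 and 5886 counts per cell in COP1 KO and 5955 and 6756 in HET, and the median mitochondrial share was 1.32% and 1.28% against 1.08% and 1.11%. The part of these in the Ier3 difference was not tested.

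The other genes in radial-glia-like cells did not pass. Btg2 had 230.3 and 204 CPM in COP1 KO and 253 and 285 CPM in HET, lower in each of the COP1 KO samples than in HET (log2 change -0.27, SE 0.10, edgeR adjusted p = 0.229). Egr1 had 73.8 and 93.7 CPM in COP1 KO and 67.3 and 73.9 CPM in HET, with overlapping genotypes. Ier2 had 154 and 181 CPM in COP1 KO against 218 and 188 CPM in HET, and Dusp1 had 113 and 97.5 CPM against 134 and 120.2 CPM. Nr4a1 and Klf6 had log2 changes of 0.12 (SE 0.25) and 0.02 (SE 0.12). Of the 7 tested genes, 4 did not overlap between genotypes, where 45.7% of all genes in this class did not.

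In intermediate-progenitor-like cells none of the 7 genes passed after adjustment. Ier2 had 227 and 224 CPM in COP1 KO and 306 and 288 CPM in HET (log2 change -0.36, SE 0.09, edgeR adjusted p = 0.148). Dusp1 had 119 and 128 CPM in COP1 KO and 167 and 167 CPM in HET (log2 change -0.40, SE 0.11, edgeR adjusted p = 0.182). Both genes were lower in each COP1 KO library than in either HET library. Btg2 had 326 and 306 CPM in COP1 KO against 362 and 385 CPM in HET, and Egr1 had 168 and 161 CPM against 152 and 115 CPM. Their log2 changes were -0.20 (SE 0.09) and 0.33 (SE 0.13). Ier3, Nr4a1 and Klf6 overlapped between genotypes. Of the 7 tested genes, 4 did not overlap. The share over all genes is not given for this class, so this count cannot be read as particular to the members. In radial-glia-like cells that share was 45.7%.

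Oligodendrocyte-precursor-like cells numbered 113 and 141 in COP1 KO libraries and 34 and 36 in HET libraries, so the HET levels rest on few cells. The class also carried the 15 listed radial glia markers, which summed to 15558 and 17545 CPM in COP1 KO and 18899 and 21813 CPM in HET. In radial-glia-like cells the same markers summed to 18961 and 17703 CPM in COP1 KO and 20312 and 21164 CPM in HET. Nr4a1 there had 60.6 and 78.2 CPM in COP1 KO and 223 and 129 CPM in HET, from 48 and 83 counts in COP1 KO and 62 and 39 counts in HET (log2 change -1.38, SE 0.33, edgeR adjusted p = 0.239). Without HET replicate 2 the log2 change was -1.75 (edgeR adjusted p = 0.00619), in a fit that called 2.07% of all genes. At clustering resolution 2.0 the class held 106 and 116 COP1 KO cells and 22 and 28 HET cells, and Nr4a1 was 63.2 and 61.0 CPM in COP1 KO and 58.8 and 92.4 CPM in HET. At the finer clustering the genotypes overlapped, HET replicate 1 had 8 Nr4a1 counts in the class, and the log2 change was -0.32. Dusp1 had 75.8 and 78.2 CPM in COP1 KO and 166 and 112 CPM in HET (log2 change -0.89, SE 0.29). Btg2 had 84.6 and 104.6 CPM in COP1 KO and 148 and 155 CPM in HET (log2 change -0.71, SE 0.23). In the class as first clustered, endothelial markers summed to 13.9 and 21.7 CPM in COP1 KO and 57.6 and 16.51 CPM in HET, and fibroblast markers to 6.31 and 25.5 CPM in COP1 KO and 68.4 and 13.2 CPM in HET, highest in HET replicate 1, which also had the highest Nr4a1. Their part in the Nr4a1 values was not tested. Egr1 overlapped between genotypes at 413 and 517 CPM in COP1 KO and 486 and 492 CPM in HET.

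In ganglionic-eminence-progenitor-like cells Nr4a1 had 8.67 and 8.64 CPM in COP1 KO and 25.2 and 19.5 CPM in HET (log2 change -1.30, SE 0.36, edgeR adjusted p = 0.309). In striatal-projection-neuron-like cells it had 64.5 and 66.7 CPM in COP1 KO and 81.3 and 106 CPM in HET (log2 change -0.48, SE 0.15, edgeR adjusted p = 0.612). In Cajal-Retzius-like cells it had 9.15 and 3.90 CPM in COP1 KO and 13.7 and 9.83 CPM in HET, from 6 counts in COP1 KO and 12 in HET, too few to test. Its log2 change was -0.10 (SE 0.08) in excitatory-neuron-like and -0.11 (SE 0.22) in cortical-interneuron-like cells. Btg2 was 155 and 140 CPM in COP1 KO and 184 and 204 CPM in HET among ganglionic-eminence-progenitor-like cells. In striatal-projection-neuron-like cells it ran the other way, with 84.7 and 69.5 CPM in COP1 KO and 58.5 and 53.7 CPM in HET (log2 change 0.48, SE 0.16, edgeR adjusted p = 0.624, and 0.013 without COP1 KO replicate 2, where 3.34% of all genes were called). In excitatory-neuron-like cells, the deepest class with 14915552 to 16033512 counts per library, Klf6 had 237 and 236 CPM in COP1 KO and 222 and 216 CPM in HET (log2 change 0.14, SE 0.04, edgeR adjusted p = 0.493). Ier3 in these cells had 4.73 and 6.21 CPM in COP1 KO and 5.49 and 5.70 CPM in HET, without a difference beyond the spread.

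Microglia-like, fibroblast-like, endothelial-like and mural-like cells, where the genes were highest, had too few cells per library to test. Microglia-like cells numbered 28 and 24 in COP1 KO and 18 and 16 in HET. Ier2 there had 722 and 728 CPM in COP1 KO and 565 and 519 CPM in HET, and Ier3 had 615 and 606 CPM in COP1 KO and 542 and 488 CPM in HET. Both genes, and Btg2 at 497 and 655 CPM in COP1 KO against 427 and 418 CPM in HET, were higher in each COP1 KO library. In fibroblast-like cells Egr1 (391.8 and 503 CPM in COP1 KO, 298 and 285 CPM in HET), Ier2 (285 and 402 CPM in COP1 KO, 279 and 187 CPM in HET), Btg2 (404 and 488 CPM in COP1 KO, 317 and 176 CPM in HET) and Hspa1a (77.2 and 158 CPM in COP1 KO, 23.7 and 41.5 CPM in HET) were higher in each COP1 KO library too. Ier3 lay the other way there, at 570 and 499 CPM in COP1 KO and 677 and 793 CPM in HET. Zfp36 in the same cells had 47.5 and 50.3 CPM in COP1 KO and 14.2 and 20.7 CPM in HET. In microglia-like cells Egr1, Nr4a1, Dusp1, Zfp36 and Klf6 overlapped between genotypes, and in fibroblast-like cells Nr4a1, Dusp1, Klf6 and Hspa1b did. Every gene of the set overlapped in endothelial-like and in mural-like cells. The share of all genes without overlap is not given for these classes, so a gene without overlap here cannot be read as changed. In whole-library sums that share was 45.8%. The levels are given without a test.

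**Figure D4:**
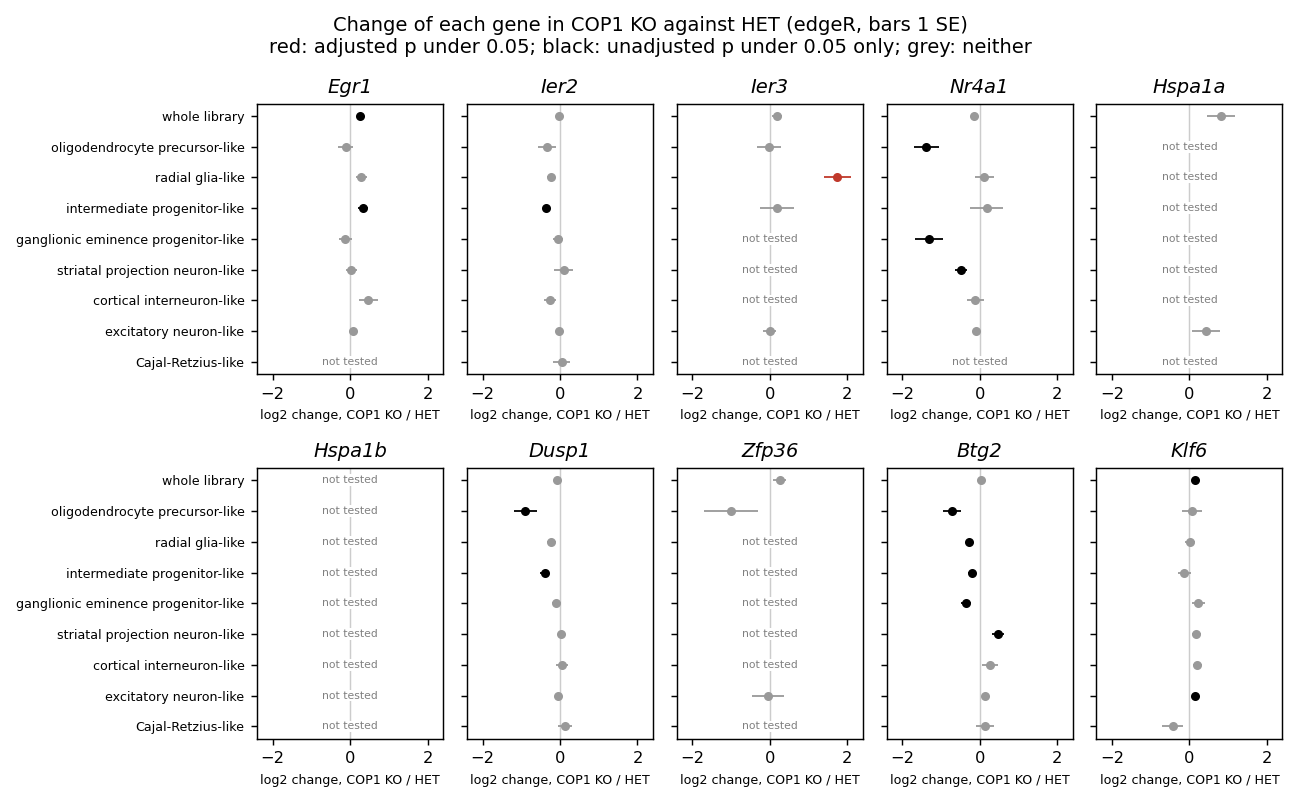
Log2 change of each gene in COP1 KO against HET, in the whole library and in each of 8 tested classes, from edgeR, with bars of 1 SE. Red marks the 1 pair with an adjusted p under 0.05 (Ier3 in radial-glia-like cells, 1.74), black an unadjusted p under 0.05 only, and grey neither.

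Whether a change differed between classes was tested by an interaction of class and genotype, blocked on library, against excitatory-neuron-like cells, over 13098 genes and 8 of the 10 members. In radial-glia-like cells 2 of the 8 genes differed, where 2.02% of genes did. Ier3 differed by 1.73 (SE 0.39, edgeR adjusted p = 0.00548) and Btg2 by -0.40 (SE 0.10, edgeR adjusted p = 0.0214). In oligodendrocyte-precursor-like cells 1 of 8 differed, Nr4a1 by -1.15 (SE 0.26, edgeR adjusted p = 0.0103), where 1.64% of genes did. In the other 5 classes none of the members differed, at backgrounds of 0.183% in intermediate-progenitor-like, 0.0993% in cortical-interneuron-like, 0.0687% in ganglionic-eminence-progenitor-like, 0.0229% in striatal-projection-neuron-like and 0% in Cajal-Retzius-like cells. The fit pools its spread over classes of the same 4 libraries, so it measures little of the variation between mice.

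Each of these differences depended on single libraries. The Ier3 difference had an edgeR adjusted p of 0.0722 without COP1 KO replicate 1 (difference 1.56) and 0.172 without HET replicate 1 (difference 1.38). The Btg2 difference had an edgeR adjusted p of 0.603 without COP1 KO replicate 2 (difference -0.26) and 0.341 without HET replicate 2 (difference -0.32). The Nr4a1 difference had an edgeR adjusted p of 0.0669 and 0.0599 without COP1 KO replicates 1 and 2 (differences -1.06 and -1.24), and of 0.5 without HET replicate 1 (difference -0.63). At clustering resolution 2.0, Nr4a1 differed by -0.16 (edgeR adjusted p = 0.953).

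**Figure D5:**
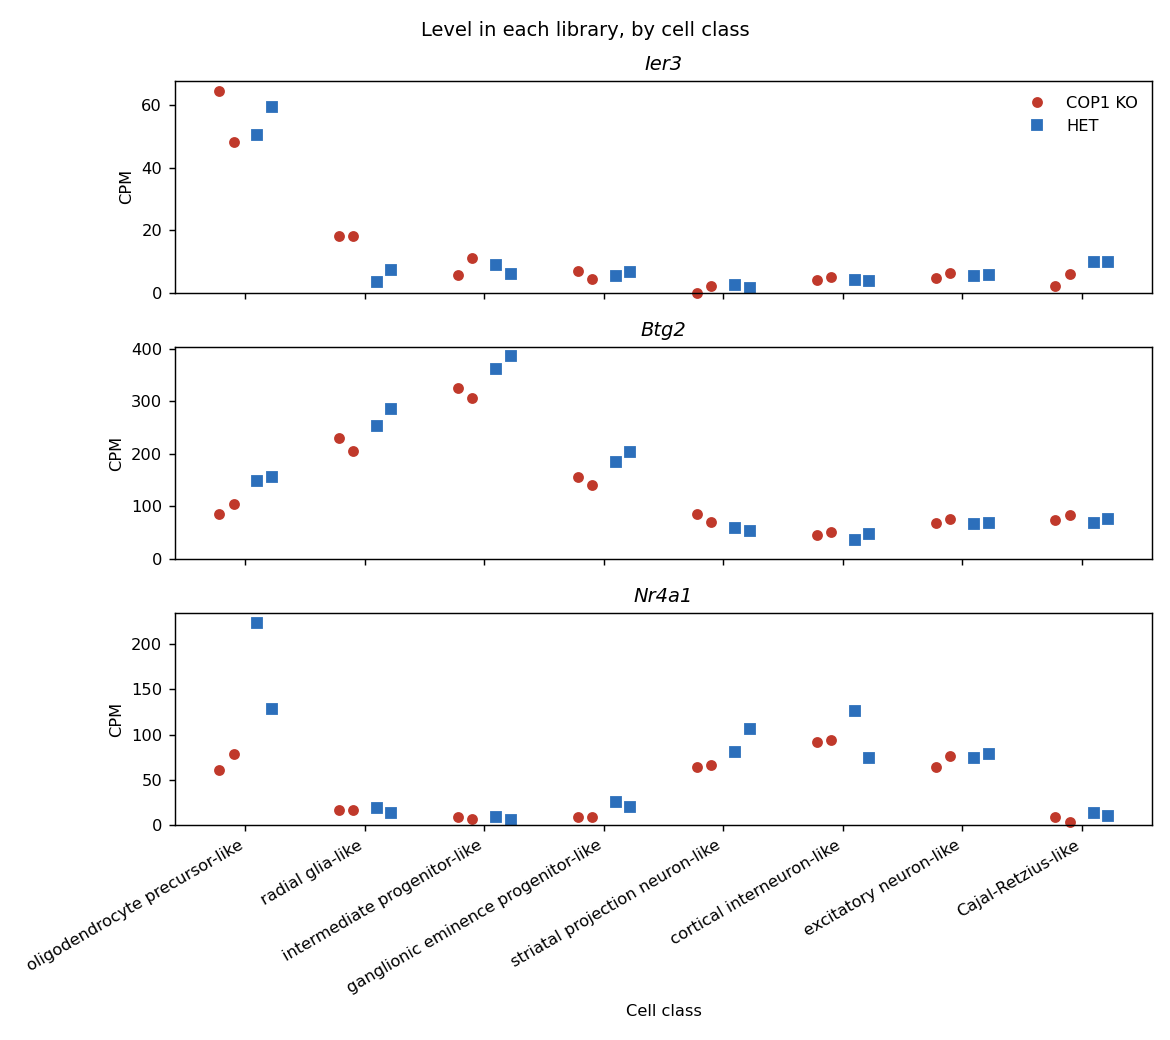
Level of Ier3, Btg2 and Nr4a1 in each library, in CPM, across the 8 tested classes (circles COP1 KO, squares HET). In radial-glia-like cells Ier3 sits at 18.2 CPM in both COP1 KO libraries against 3.57 and 7.35 CPM in HET, and in oligodendrocyte-precursor-like cells the 2 HET values of Nr4a1, 223 and 129 CPM, lie apart from each other.

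Other genes of the same pathways were counted in lists, which were chosen with earlier results of these data known. In whole-library sums no gene of any of the 8 lists passed, among them 41 tested other immediate early genes (median log2 change 0.03), 24 heat-shock and chaperone genes (0.01) and 14 genes of the unfolded protein and integrated stress response (0.04), against 0.00 for all genes. In radial-glia-like cells 7 of 37 other immediate early genes rose and 2 fell, with a median log2 change of 0.23 against 0.00 for all genes and 3.04% called overall. Csrnp1 had 25.8 and 17.7 CPM in COP1 KO and 6.12 and 5.19 CPM in HET (log2 change 1.98, SE 0.33, edgeR adjusted p = 0.0125). Nfkbia, the inhibitor of NF-kB, had 182 and 131 CPM in COP1 KO and 76.5 and 70.5 CPM in HET (log2 change 1.14, SE 0.17, edgeR adjusted p = 0.00691). Nfil3, Cebpd, Plk2, Klf10 and Rhob also rose, with log2 changes of 1.34, 1.14, 0.98, 0.96 and 0.70. The 2 genes that fell had higher levels. Jun, the gene of c-JUN, had 855 and 745 CPM in COP1 KO and 1609 and 1515 CPM in HET (log2 change -0.92, SE 0.09, edgeR adjusted p = 0.000887). Cyr61, a secreted matrix protein gene, had 390.3 and 388 CPM in COP1 KO and 688 and 679 CPM in HET (log2 change -0.77, SE 0.08, edgeR adjusted p = 0.000855). Jun, Cyr61, Rhob and, in this list, Klf10 are named beyond the 5 largest changes, after their values were seen.

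Lists close to single members gave 1 call each or none. In radial-glia-like cells the p53 target Cdkn1a, a cell-cycle inhibitor, had 15.1 and 13.9 CPM in COP1 KO and 4.59 and 2.59 CPM in HET (log2 change 2.07, SE 0.38, edgeR adjusted p = 0.0189), 1 of 9 tested. Dusp14, a relative of Dusp1, had 92.0 and 85.7 CPM in COP1 KO and 39.8 and 47.6 CPM in HET (log2 change 1.06, SE 0.14, edgeR adjusted p = 0.00469), 1 of 10 tested. Klf10, a relative of Klf6, rose by 0.96 (SE 0.22, edgeR adjusted p = 0.0496), 1 of 12 tested. Tob1, an antiproliferative relative of Btg2, had 199 and 204 CPM in COP1 KO and 268 and 258 CPM in HET (log2 change -0.34, SE 0.08, edgeR adjusted p = 0.0441), 1 of 10 tested. None of 23 heat-shock genes passed in this class. In ganglionic-eminence-progenitor-like cells Dusp10 had 167 and 142 CPM in COP1 KO and 74.4 and 80.5 CPM in HET (log2 change 1.03, SE 0.15, edgeR adjusted p = 0.0207), and in intermediate-progenitor-like cells Jun had 300.2 and 300.9 CPM in COP1 KO and 452 and 453 CPM in HET (log2 change -0.55, SE 0.08, edgeR adjusted p = 0.0197).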

How the data were processed

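The deposited tables, one per library, hold raw counts of each gene in each cell barcode, made by the authors with the Chromium Single Cell 3′ kit v2, per the labels' protocols. GSNAP 2013-10-10 and the build GRCm38 are named in the submitters' processing notes, and the counter, the collapsing of molecular identifiers and the cell calling are not given in the sources used. Of 36528 gene rows, 3065 are named by a number only (1.69% of counts). Row copies identical in every cell were counted once, which removed 40 rows (1.33% of counts) and none of the 10 genes.

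Barcodes were dropped for under 500 genes (222) or over 10% mitochondrial counts (1). The limit that Scrublet set by itself marked 12 cells (0.0631%), too few to have worked, so 232 cells (1.22%) with a score above 0.25 were removed instead. Clustering used scanpy 1.11.5 and leidenalg 0.10.2 with 2000 variable genes, 30 components, 15 neighbours and resolution 1, leaving out 76 stress genes. It gave 27 clusters, named from listed markers by a scoring limit set after the data were seen (at least 3 markers detected). Kept counts were summed per library and class. Classes with at least 20 cells in every library were tested over all genes with edgeR 4.0.16 (quasi-likelihood, TMM, filtered for low counts, Benjamini-Hochberg adjusted p under 0.05), under R 4.3.3, and with DESeq2 1.42.0 as an alternative. The tests were tried on simulated data first. Levels are CPM, and shares of cells were taken after thinning each cell to 2000 counts, which left out 161 COP1 KO cells and 0 HET cells. Intervals are exact at 95% and cover counting error only. Other alternatives were unscaled library totals, no filter, other clusterings, no doublet removal, thinned sums and leaving out each library. Single clusters, and sums without vessel, microglia and fibroblast cells or without oligodendrocyte-precursor-like cells, were added after seeing the data. Motifs were searched from 250 bases before to 50 after each RefSeq start.

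The 10 genes and the other gene lists were chosen with earlier results of these data known. Genes outside the 10 are named where they passed the threshold, at most the 5 largest changes of a list in a class except where the text says so, and the genes most like the set are the 5 with the highest correlation among those averaging at least 20 CPM over the class sums.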

Additional observations from a re-analysis of the deposited data

Results flagged for a closer look

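The change of Ier3 in COP1 KO radial-glia-like cells differed from that in excitatory-neuron-like cells by 1.73 on the log2 scale, by the test of the difference itself (edgeR adjusted p = 0.00548). Btg2 in radial-glia-like cells differed by -0.40 (edgeR adjusted p = 0.0214) and Nr4a1 in oligodendrocyte-precursor-like cells by -1.15 (edgeR adjusted p = 0.0103). Each lost its call without at least 1 library, as given above.

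Counts of 6 of the 10 genes were also present in the 222 barcodes removed for few genes, which the comparisons do not use and which held 937389 counts. Egr1 had 7 counts there, Ier2 7, Nr4a1 4, Dusp1 8, Btg2 4 and Klf6 7, above the 3 counts that a count of 0 allows. Ier3, Hspa1a, Hspa1b and Zfp36 had 0 counts there. The Egr1 counts were 7.47 CPM, against a mean of 80.2 CPM in kept cells.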

How the results depend on the processing

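The number of genes called depended on the setting in 5 comparisons. Without a filter on low counts it was 1 in intermediate-progenitor-like cells (Ier2) and 1 in oligodendrocyte-precursor-like cells (Nr4a1), against 0, while 1.59% and 1.84% of all genes were called. Leaving out single libraries gave 0 to 1 in whole-library sums (0% to 6.93% of all genes), 0 to 1 in oligodendrocyte-precursor-like cells (0% to 2.07%), 0 to 1 in striatal-projection-neuron-like cells (0.512% to 3.34%) and 0 to 1 in radial-glia-like cells (1.38% to 6.64%). In radial-glia-like cells the count was 1, and it was 0 with DESeq2 (0.844% of all genes), 0 with thinned cells (1.17%), 0 in cluster 10 alone (2.29%), 0 in cluster 15 alone (2.19%) and 3 at resolution 0.5 (3%), where Btg2 and Egr1 joined Ier3. Thinned sums held 12 and 13 Ier3 counts in COP1 KO and 3 and 3 in HET, too few to be tested. At resolution 0.5 no cluster was named oligodendrocyte-precursor-like. The radial-glia-like class then held 513 and 483 COP1 KO cells and 322 and 343 HET cells. At resolution 1 it held 383 and 332 COP1 KO cells and 281 and 296 HET cells. The 3 calls thus came from a larger class, and whether oligodendrocyte-precursor-like cells had joined it was not tested. Genes that differed from excitatory-neuron-like cells numbered 1 in oligodendrocyte-precursor-like cells, with 0 to 2 when single libraries were left out (0.526% to 3.69% of all genes), 0 at resolution 2.0 (0.857%) and 0 without doublet removal (0.986%). In radial-glia-like cells 2 differed, and 1 whichever library was left out (1.04% to 1.6% of all genes). The log2 change of Btg2 in whole-library sums, 0.02, was -0.04 to 0.09 when single libraries were left out and -0.02 without vessel, microglia and fibroblast cells. The cause was not tested for any of these. Recomputed log2 changes were counted only for whole-library sums and for the 14 pairs of gene and class with an unadjusted p under 0.05. Of these only Ier3 in radial-glia-like cells had passed at first, so the others had no call to lose. The weaker pairs were left out of the count. Of 266 counted, 253 kept their direction and their side of the threshold and 6 passed it only in the alternative. Another 4 (all Ier3 in radial-glia-like cells) no longer passed and 3 (all Btg2 in whole-library sums) changed sign. The share of cells with at least 3 of the genes moved with depth, from 11.8% at 2000 counts to 3.66% at 1000 counts and 41.9% without thinning. No paired analysis was possible because the labels give no replicate numbers.

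Limits are 2 mice per genotype, 3′ counts, rebuilt class names and few cells in the classes where the genes were highest. Hspa1b and, in neural cells, Ier3 had few counts.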
